A study of Mus musculus with 24 samples.

Results

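The genes described here are those whose newly made RNA could be compared between resting Th1 cells and the same cells 0.5 h after restimulation. Newly made RNA was captured with 4-thiouridine (4sU), a uridine analogue that cells build into RNA while they transcribe, so that RNA made during the labelling time can be separated from older RNA. The comparison rests on 1 library at 0 h and 1 library at 0.5 h, each labelled with 500 µM 4sU for 0.5 h, and is called the short label below. Values were deposited as FPKM (fragments scaled to gene length and to the mapped fragments of the library). Genes entered when their mean over the 2 libraries reached 5 FPKM, which kept 7155 of the 9420 genes in the table. The gene just inside that limit was Coq8a, at 4.82 and 5.18 FPKM, and the gene just outside was Pot1b, at 5.05 and 4.94 FPKM. The difference given for a gene is log2(FPKM + 1) at 0.5 h minus log2(FPKM + 1) at 0 h. With 1 library a side no test was made for it.

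The cells were Th1 effector CD4+ T cells of DO11.10 mice, a T cell receptor transgenic strain. For restimulation, plates coated with goat antibody against hamster IgG were used with soluble anti-CD3 at 1 µg/ml and anti-CD28 at 2.5 µg/ml, which engage the T cell receptor and the costimulatory receptor CD28. The 0 h libraries come from the cells before restimulation. The labels do not say at which moment 4sU was added relative to the stimulus. Libraries of 3 other kinds from the same kind of cell gave separate readings of the same genes. They are 4sU RNA labelled with 200 µM for 1 h (2 replicates at 0, 1 and 4 h, 1 library at 2 h and another at 3 h), ribosome-protected fragments from ribosome profiling (RP, with 2 libraries at 0 h and 1 at 0.5 h), and total RNA. In bulk libraries such as these, fewer cells of a type and less RNA per cell cannot be told apart. FPKM is a share of a library, so a gene can be lower only relative to the rest of the new RNA.

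Immediate early genes are genes that a stimulus switches on without the need for new protein. In T cells, receptor signals reach them through the MAP kinases, calcium and NFAT, and NF-kB. Many encode transcription factors that act on later genes, and others encode cytokines or proteins that shut the same signals down.

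Depth was read from the steps between the smallest FPKM values. It came to about 7.40 M fragments at 0 h, where 59.6% of 52 low values were whole fragments within 0.1, and about 6.41 M at 0.5 h, where 56.8% of 74 were. The median share of whole values over other depths was 20% and 19.2%. Any whole multiple of these depths gives the same steps, so they are the smallest depths that match. At these depths the median gene rested on about 549 and 473 fragments. The standard error (SE) from counting alone had a median of 0.09 on the log2 scale. Summed levels of marker genes of other cell types were close to each other in the 2 libraries. The summed FPKM of 7 CD8 T cell and cytotoxic markers was 80.7 and 82.8, of 5 B cell markers 4.01 and 3.12, of 4 dendritic cell markers 10.2 and 13.8, and of 3 macrophage markers 22.3 and 24.2. The 6 regulatory T cell markers, Il2ra among them, summed to 107.7 and 93.6 FPKM, and the 6 Th2 markers, Gata3 among them, to 51.6 and 50.9. The 7 Th1 CD4 markers summed to 457.5 and 530.3 FPKM, with Ifng at 46.3 and 198, and none was at 0. Of these 7, 5 were below 0 in the difference, with a median of -0.27.

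At 0.5 h few genes differed by 2-fold in new RNA. The median difference over the 7155 genes was -0.03, 93.2% lay within 1.5-fold, and the levels of the 2 libraries correlated across genes with r = 0.958, genes not being independent replicates. With this median, more genes lay below 0 than above it, which is the background for the counts of list members that follow. The exact share on each side of 0 was not counted. The quartiles of the difference over all 7155 genes were -0.23 and 0.17, and list medians can be set beside them. At least 2-fold higher were 54 genes (0.755%), and at least 2-fold lower were 14 genes (0.196%). At least 4-fold higher were 11 genes and at least 8-fold higher 8 genes, while 0 genes were 4-fold lower. The 54 genes together summed to 2750 FPKM before and 8069 FPKM after restimulation. They were picked for being higher between these same 2 libraries, so a rise of the sum was built in. Of the 54, 42 were at or above 5 FPKM at 0 h, and the other 12 entered only through their level at 0.5 h, which fixes their direction. Likewise, 9 of the 14 lower genes were at or above 5 FPKM at 0.5 h. The other 5 entered only through their level at 0 h, which fixes their direction too. Among the 2265 genes under the limit, 9 were at least 2-fold higher and 9 lower.

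**Figure D1:**
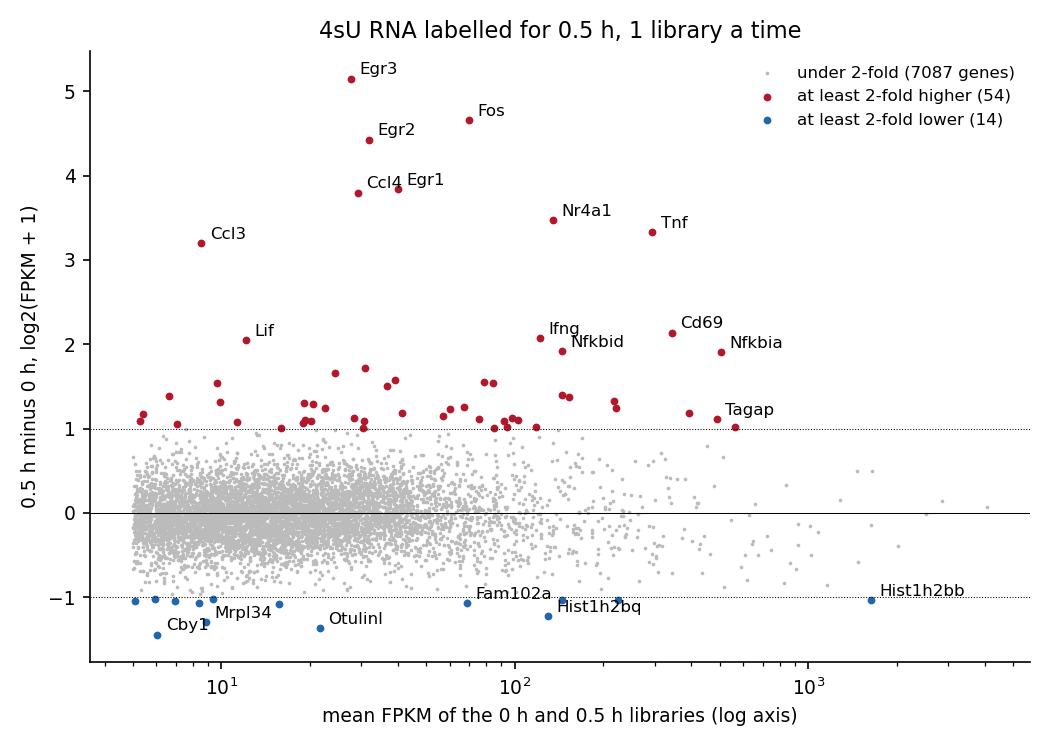
Each point is 1 of the 7155 genes, with the mean FPKM of the 2 short-label libraries on a logarithmic x axis and the log2(FPKM + 1) difference, 0.5 h minus 0 h, on the y axis. Red points are the 54 genes at least 2-fold higher and blue points the 14 at least 2-fold lower. The 8 highest points lie above 3 and the lowest is Cby1 at -1.44.

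For comparison, replicate libraries of the 1 h label were set against each other in the same way. The 2 libraries differed by at least 2-fold in 208 genes at 0 h (2.82% of those at 5 FPKM or more), in 309 genes at 1 h (4.27%) and in 446 genes at 4 h (6.33%), against 68 genes (0.950%) between the short-label libraries. So 2-fold gaps were fewer between the 2 times of the short label than between replicates of the longer label. Replicate gaps hold a part shared by same-numbered libraries, whose deviations from group means correlated at 0.306 to 0.790 between groups. They thus do not measure the spread within the short-label pair, which has no replicate. For 46 of the 54 higher genes and 12 of the 14 lower genes, the difference at 0.5 h was larger than the replicate gap of the same gene at both 0 h and 1 h, as it was for 32.4% of all 7155 genes. The exceptions were Cd82, Dusp6, Gadd45b, Gem, Ier3, Ifng, Il10 and Odc1 among the higher genes, and Hist1h2bb and Hist1h2bc among the lower. Both sets were picked for a difference of at least 2-fold, so a larger share than over all genes was built in.

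Transcription factors of the immediate early class stood at the top. Egr3, a zinc finger factor of the early growth response family, was listed with 0.57 FPKM before and 54.8 FPKM after restimulation, a difference of 5.15. Fos, which pairs with Jun proteins to form AP-1, stood at 4.4 and 135 FPKM, a difference of 4.65. Egr2 stood at 1.92 and 61.8 FPKM (4.43), and Egr1 at 4.36 and 75.8 FPKM (3.84). Nr4a1, an orphan nuclear receptor widely used as a reporter of T cell receptor signals, stood at 21.6 and 248.8 FPKM (3.47). The counting SE of these 5 differences ran from 0.06 for Nr4a1 to 0.34 for Egr3.

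Members of the same list further down differed less. Klf10 went from 18.6 to 54.7 FPKM (1.51), Ier2 from 79.6 to 211 (1.396), Maff from 5.23 to 14.5 (1.32) and Jun from 10.6 to 27.55 (1.30). Junb, another AP-1 member, was at 93.9 and 187 FPKM, just short of 2-fold (0.99). Myc, which drives growth and metabolism, was at 37.1 and 60.3 FPKM (0.69). Srf, the factor that binds CArG boxes, was at 7.27 and 12.45 FPKM (0.70). Irf4 was at 289 and 386 FPKM (0.42), Klf6 at 244 and 247 (0.02), and Fosl2 at 17.3 and 17.7 (0.03). Crem, a CRE-binding factor, was the 1 member that was lower, at 11.2 and 7.70 FPKM (-0.49). Of the 21 immediate early factors above 5 FPKM, 11 were at least 2-fold higher, 20 were above 0, and the median difference was 1.01. Related genes fell under the limit of 5 FPKM and are named here after their values were seen. Fosb was at 0.27 and 6.92 FPKM (2.64), Nr4a2 at 0.25 and 3.64 (1.89), and Nr4a3 at 1.27 and 6.41 (1.71).

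Upstream sequence was available for 40 of the 54 higher genes, from RefSeq annotation of GRCm38.p6, as windows of 250 bases before to 50 bases after a transcript start. Both strands were searched for 5 motifs, as a description of letters and not of binding sites. The CArG box, the Srf motif, was found in 3 of the 40 genes (7.5%, Actg1, Egr2 and Zfp36) against 1.58% of the 5819 genes above 5 FPKM that had a window. The cyclic AMP response element (CRE, letters TGACGTCA) was found in 4 genes (10.0%, Ccnl1, Dusp1, Maff and Nfkbid) against 4.09%. The AP-1 motif (TGANTCA) was found in 5 (12.5%) against 5.40%, the NF-kB motif in 10 (25%) against 6.17%, and the TATA box (TATAAA) in 9 (22.5%) against 8.04%. Each motif was counted on its own, whether or not it overlapped another. A gene counted when any of its windows held the motif, with 57 windows for the 40 genes and 7388 for the 5819. Over all 32851 windows in the table, genes outside these libraries included, shares were counted per window and not per gene. They were 1.63% for the CArG box, 1.79% for CRE, 7.81% for AP-1, 4.51% for NF-kB and 13.6% for the TATA box. Without a window were Egr1, Egr3, Ccl4, Cd69, Ier2, Klf10, Nfkbiz, Bhlhe40, Gem, Il10, Phlda1, Polr2k, Rps27a and Gm49339.

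The 250 bases before the start of Egr2 and of Zfp36 are shown because each holds a CArG box close to the start. Capitals mark the box, which begins 72 bases before the start in Egr2 and 58 bases before it in Zfp36. The Egr2 window is chr10:67537619-67537868 on the plus strand and the Zfp36 window chr7:28379229-28379478 on the minus strand of GRCm38.p6, each upstream of the first exon of that transcript.
Egr2: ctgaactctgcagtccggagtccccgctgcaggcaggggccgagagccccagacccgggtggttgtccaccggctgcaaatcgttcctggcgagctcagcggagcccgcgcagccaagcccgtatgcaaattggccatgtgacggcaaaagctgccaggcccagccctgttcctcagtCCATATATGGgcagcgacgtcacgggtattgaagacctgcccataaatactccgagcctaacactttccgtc
Zfp36: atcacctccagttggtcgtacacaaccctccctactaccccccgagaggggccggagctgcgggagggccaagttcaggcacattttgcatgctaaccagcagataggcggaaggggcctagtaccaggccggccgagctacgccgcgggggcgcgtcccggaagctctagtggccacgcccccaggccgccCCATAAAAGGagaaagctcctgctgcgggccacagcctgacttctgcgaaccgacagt
Other annotated starts of Egr2 place the same box 73 or 133 bases before them.

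Genes of the NF-kB system formed the next block. NF-kB factors wait in the cytoplasm bound to inhibitors, and their own inhibitor genes are among their best known targets. Nfkbia, which encodes the inhibitor IkB-alpha, was at 213 FPKM at 0 h and 798.5 at 0.5 h, a difference of 1.90 and the highest level at 0.5 h among the 54 genes. Nfkbid, a nuclear IkB protein, was at 59.9 and 229.5 FPKM (1.92), and Nfkbiz, another nuclear IkB protein, at 42.7 and 126 (1.53). The subunit gene Nfkb2 was at 39.4 and 118 FPKM (1.55). Tnfaip3, which encodes the ubiquitin-editing inhibitor A20, was at 131 and 312 FPKM (1.24), and Bcl3 at 10.25 and 21.6 (1.01). The other subunits were nearer their resting level, with Rela at 31.9 and 45.1 FPKM (0.49), Relb at 9.98 and 13.7 (0.42), Rel at 8.46 and 8.62 (0.02) and Nfkb1 at 35.1 and 32.8 (-0.09). Of 18 genes in the list, 6 were at least 2-fold higher, 14 were above 0, and the median difference was 0.50. The inhibitors Nfkbie (0.74) and Nfkbib (0.62) and the signalling genes Bcl10 (0.52) and Malt1 (-0.13) were under 2-fold.

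Nfkbid, Nfkbia and Nfkb2 held NF-kB letters in the 250 bases before a start, and their windows are shown for that reason. Capitals mark NF-kB matches and, in Nfkbid, a CRE. In Nfkbid (chr7:30422156-30422405, plus strand) the NF-kB matches begin 226 and 181 bases and the CRE 51 bases before the start. In Nfkbia (chr12:55492648-55492897, minus strand) the match begins 29 bases before the start. In Nfkb2 (chr19:46304487-46304736, plus strand) overlapping matches begin 39 and 38 bases and another 11 bases before the start. All coordinates are GRCm38.p6, and the windows lie upstream of the first exon of their transcript.
Nfkbid: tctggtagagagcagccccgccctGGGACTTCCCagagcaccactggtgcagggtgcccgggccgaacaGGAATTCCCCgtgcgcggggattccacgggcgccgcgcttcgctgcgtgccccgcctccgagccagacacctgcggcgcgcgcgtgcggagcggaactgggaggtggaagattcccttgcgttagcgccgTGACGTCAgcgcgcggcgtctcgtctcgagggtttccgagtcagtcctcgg
Nfkbia: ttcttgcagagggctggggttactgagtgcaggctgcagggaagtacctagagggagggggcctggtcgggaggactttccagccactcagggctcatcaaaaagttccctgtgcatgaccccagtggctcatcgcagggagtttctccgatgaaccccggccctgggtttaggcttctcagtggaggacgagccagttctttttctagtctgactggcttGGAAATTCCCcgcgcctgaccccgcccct
Nfkb2: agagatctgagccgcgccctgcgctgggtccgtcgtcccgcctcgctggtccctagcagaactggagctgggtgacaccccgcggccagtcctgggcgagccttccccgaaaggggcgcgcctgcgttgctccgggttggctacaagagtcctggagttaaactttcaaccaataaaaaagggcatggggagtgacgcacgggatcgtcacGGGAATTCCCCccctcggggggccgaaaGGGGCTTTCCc
The 10 higher genes with NF-kB letters were Bcl3, Fos, Ier3, Maff, Myl12a, Nfkb2, Nfkbia, Nfkbid, Nr4a1 and Tnfaip3.

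Effector cytokines differed widely among themselves. Tnf, the inflammatory cytokine tumour necrosis factor, was at 52.4 FPKM at 0 h and 536 at 0.5 h, a difference of 3.33. Ifng, the signature cytokine of Th1 cells, was at 46.3 and 198 FPKM (2.07). Lif was at 4.09 and 20.1 FPKM (2.05), Lta, the neighbour and relative of Tnf, at 4.47 and 14.9 (1.54), and the regulatory cytokine Il10 at 11.4 and 29.5 (1.29). Csf2, which encodes GM-CSF, was at 12.1 and 14.3 FPKM (0.22), Ltb at 200 and 265 (0.41), and Osm at 33.0 and 31.9 (-0.05). Il2, the T cell growth factor, stayed under the limit at 0.47 and 0.96 FPKM. Il21 was also under it, at 2.33 and 6.45 FPKM (1.16), and was named after its values were seen. Of 11 effector cytokines above 5 FPKM, 5 were at least 2-fold higher and the median was 0.60.

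The chemokine genes Ccl4 and Ccl3, which encode MIP-1 beta and MIP-1 alpha, were at 3.05 and 55.3 FPKM (3.80) and at 0.88 and 16.2 FPKM (3.20). They are close relatives, so that reads may be shared between them or with nearby copies. The counting SE was 0.39 for Ccl4 and 0.67 for Ccl3, the largest among the 54 genes. Ccl5 was at 3.92 and 7.57 FPKM (0.80), and Xcl1 stayed at 0.51 and 0.90 FPKM. Ccl3, Ccl4 and Ccl5 were below 5 FPKM at 0 h and entered only through 0.5 h, which fixes their direction.

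Some genes whose products limit signalling or destroy mRNA were also past 2-fold, and others of the same lists were below 0. Among dual specificity phosphatases, which remove phosphate from MAP kinases, Dusp2 was at 123 and 312 FPKM (1.33), Dusp1 at 39.1 and 94.6 (1.25) and Dusp6 at 61.1 and 134 (1.12). Dusp4 was at 30.1 and 58.0 FPKM (0.92), Dusp5 at 255 and 397 (0.64) and Dusp10 at 79.6 and 67.1 (-0.24). Rgs16, which limits G protein signals, was at 2.93 and 7.85 FPKM (1.17), whereas its relative Rgs14 was at 35.3 and 18.4 (-0.91). Of 14 feedback inhibitors, 4 were at least 2-fold higher, 5 were below 0 and the median was 0.72. Among the 4, Rgs16 was below 5 FPKM at 0 h and entered only through 0.5 h, which fixes its direction. Cish, a SOCS family inhibitor of cytokine receptors, was at 13.8 and 47.7 FPKM (1.72), while Socs1 was at 35.1 and 41.5 (0.23) and Socs3 at 57.9 and 51.2 (-0.17).

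Zfp36 encodes tristetraprolin, which binds AU-rich elements and brings about decay of cytokine mRNA. It was at 84.9 and 222 FPKM (1.38), and Zc3h12a, which encodes the endonuclease Regnase-1, at 34.8 and 78.7 (1.15). The other 12 mRNA decay factors were under 2-fold, from Zc3h12d at 92.4 and 55.9 FPKM (-0.71) to Btg1 at 397 and 630 (0.66). The list as a whole had 6 of 14 genes below 0 and a median of 0.02.

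Further genes past 2-fold had other functions. Plk3, a kinase of the polo family, was at 11.2 and 37.5 FPKM (1.66), and Odc1, the first enzyme of polyamine synthesis, at 19.2 and 59.2 (1.58). Gadd45b and Gadd45g, which activate stress kinases, were at 13.1 and 32.2 FPKM (1.24) and at 64.8 and 139.8 (1.098). Bhlhe40, a factor needed for cytokine production by T cells, was at 239 and 547 FPKM (1.19). Tagap, a GTPase-activating protein of T cells, was at 308 and 668 FPKM (1.12). Hspa5, the chaperone BiP of the endoplasmic reticulum, was at 77.3 and 158 FPKM (1.02). Actg1, cytoplasmic gamma actin, was at 371 and 756 FPKM (1.02), and was the 1 gene past 2-fold among 11 cytoskeletal targets of MRTF and SRF, of which 6 were below 0. Rps27a, Rpl10, Ppia and Actg1 have many near-identical copies in the genome, and their values are uncertain. In RP, Rps27a stood at 0.31, 0.48 and 0.34 FPKM and Ppia at 1.7, 0.91 and 2.35 FPKM. The remaining genes among the 54 were between 1.00 and 1.38, and among them were Gem, Phlda1, Ier3, Ier5, Ifrd1, Ccnl1, Klf11, Aen, Cd82, Arrdc3, Polr2k, Myl12a and Gm49339.

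**Figure D2:**
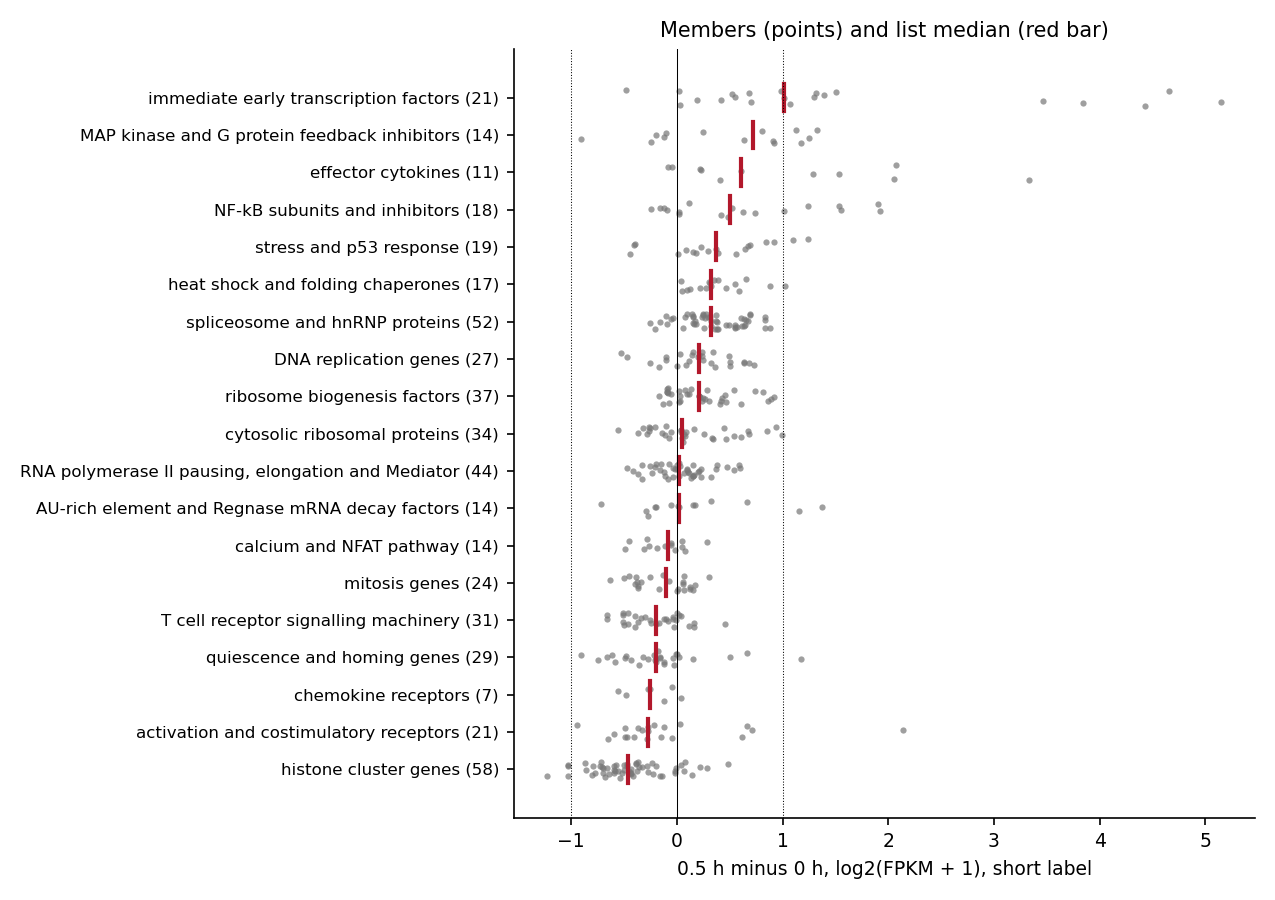
Each grey point is 1 gene above 5 FPKM and each red bar the median of its list, with the log2(FPKM + 1) difference of the short label, 0.5 h minus 0 h, on the x axis and the number of genes in parentheses. Dotted lines mark 2-fold. Immediate early transcription factors had the highest median of the lists drawn, 1.01, and histone cluster genes the lowest, -0.46.

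Surface receptors of activated T cells did not all differ in the same direction. Cd69, the early activation marker that holds T cells in tissue, was at 126 and 559.8 FPKM (2.14). It was the only 1 of 21 activation and costimulatory receptors past 2-fold. Il2rg was at 74.2 and 122 FPKM (0.71), Tnfrsf9 (4-1BB) at 7.51 and 12.5 (0.66) and Tnfrsf4 (OX40) at 203 and 311 (0.61). The other 17 lay between 0.03 and -0.94, with Ctla4 at 728 and 564 FPKM (-0.37), Icos at 224 and 159 (-0.49) and Cd27 at 133 and 68.8 (-0.94). The list median was -0.28, against -0.03 over all genes.

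Most genes of T cell receptor signalling and of resting T cells were below 0 by small amounts. Of 31 T cell receptor genes, 24 were below 0 and 0 passed 2-fold, with a median of -0.20 against -0.03 over all genes. Lck, the kinase that phosphorylates the receptor, was at 98.0 and 61.7 FPKM (-0.66), Vav1 at 34.2 and 21.2 (-0.66), and Cd3e at 55.3 and 54.3 (-0.03). Of 29 quiescence and homing genes, 23 were below 0, with a median of -0.20. Klf2, the factor that keeps homing receptors on, was at 345 and 229.9 FPKM (-0.58). S1pr1, which lets T cells leave lymph nodes, was at 334 and 260.3 FPKM (-0.36), S1pr4 at 257 and 137 (-0.91) and Ccr7 at 541 and 386 (-0.49). The other 6 were above 0, among them Arrdc3 at 24.9 and 57.6 FPKM (1.18), Btg1 (0.66) and the most abundant member, Txnip, at 1216 and 1720 FPKM (0.50). Tbx21, which encodes the Th1 master factor T-bet, was at 88.1 and 47.8 FPKM (-0.87), the lowest difference of the 16 Th1 regulators.

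The 14 genes at least 2-fold lower held 4 histone cluster genes and 2 mitochondrial ribosomal protein genes. Cby1, a nuclear antagonist of beta-catenin, was at 9.31 FPKM at 0 h and 2.79 at 0.5 h (-1.44). Otulinl, a relative of the deubiquitinase OTULIN, was at 31.6 and 11.65 FPKM (-1.37). Mrpl34 and Mrpl14 were at 13.0 and 4.73 FPKM (-1.29) and at 7.15 and 2.96 FPKM (-1.04), with 58 other mitochondrial ribosomal protein genes under 2-fold and a list median of 0.07. Mcrip1 was at 11.7 and 5.06 FPKM (-1.07), Fam102a at 93.4 and 44.0 (-1.07), the surface receptor gene Cd7 at 9.73 and 4.21 (-1.04) and the bZIP factor gene Crebl2 at 12.85 and 5.84 (-1.02). Apba3 (-1.02) and the gene model BC147527 (-1.08) made up the rest. Cby1, Mrpl34, Mrpl14 and Cd7 were below 5 FPKM at 0.5 h and were among those that entered only through 0 h, which fixes their direction. Counting SE among the 14 reached 0.40, for Mrpl14.

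Histone mRNA is made in S phase and most of it carries no poly(A) tail. Of 58 histone cluster genes, 51 were below 0, 20 were at least 1.5-fold lower (3.44% over all genes) and the median was -0.46. Hist1h2bb was at 2197 and 1074 FPKM (-1.03), Hist1h2bq at 183 and 77.5 (-1.23), Hist1h4n at 301 and 147 (-1.03) and Hist1h2bc at 195 and 95.35 (-1.03). Copies within a histone class are nearly identical, so single members are uncertain and the group is the safer reading. The summed level of the list was 37290 FPKM at 0 h and 29310 at 0.5 h. The 7 members above 0 included the linker histone genes Hist1h1b (0.14) and Hist1h1d (0.07) and the core histone gene Hist2h2aa2 (0.49), while the linker genes Hist1h1c (-0.23), Hist1h1e (-0.14) and Hist1h1a (-0.01) were below 0. Genes of DNA replication, which mark the same phase of the cell cycle, had a median of 0.21 with Pcna at 112 and 187 FPKM (0.73), and 24 mitosis genes had a median of -0.10.

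Most RNA processing and protein folding genes were above 0, and 1 of them, Hspa5, passed 2-fold. Of 52 spliceosome and hnRNP genes, 45 were above 0 and 13 were at least 1.5-fold higher (3.35% over all genes), with a median of 0.32. Hnrnpa1 was at 69.2 and 129 FPKM (0.88), Hnrnpk at 68.75 and 123 (0.83) and Srsf5 at 97.25 and 174 (0.83). All 17 heat shock and folding chaperones above 5 FPKM were above 0, with a median of 0.32, Hspa5 at 1.02 and Calr at 119 and 219.5 FPKM (0.88). Of 37 ribosome biogenesis factors, 28 were above 0, with a median of 0.21 and the nucleolar protein gene Ncl at 15.5 and 29.0 FPKM (0.86). RNA polymerase II elongation and Mediator genes (44 genes, median 0.02), zinc finger genes (210 genes, 0.02) and calcium and NFAT pathway genes (14 genes, -0.08) stayed near the median of all genes.

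Most genes that were higher at 0.5 h were short, 49 of the 54 spanning under 20 kb against 46.0% of all genes. The median span from gene start to end was 5.50 kb for the 54 higher genes, 7.61 kb for the 14 lower genes and 22.5 kb for all genes with a span. Of genes under 5 kb, 22 of 807 (2.73%) were at least 2-fold higher. The count was 17 of 986 (1.72%) from 5 to 10 kb, 10 of 1496 (0.668%) from 10 to 20 kb, 4 of 2126 (0.188%) from 20 to 50 kb, 1 of 1051 from 50 to 100 kb and 0 of 681 above 100 kb. The share of genes at least 2-fold lower was also larger among short genes, at 5 of 807 under 5 kb. The spread of all differences was wider there too, with an SD of 0.50 under 5 kb and 0.21 above 100 kb. The longest of the 54 were Dusp1 at 56.5 kb, Ifrd1 at 46.9 kb and Cd82 at 44.0 kb in the annotation used. With the 1 h label at 1 h, 4.83% of genes under 5 kb and 0.147% of genes above 100 kb were at least 2-fold higher. At rest, the FPKM of the 54 genes in new RNA stood above their FPKM in total RNA by a median of 1.08 on the log2 scale. The median was 0.52 over all genes and 1.05 for the 14 lower genes. Since FPKM is a share of each library, this ratio compares genes with each other and is not an amount of RNA. The new RNA in this ratio is the short-label 0 h library, which also picked the genes. The ratio is thus not independent of that choice.

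**Figure D3:**
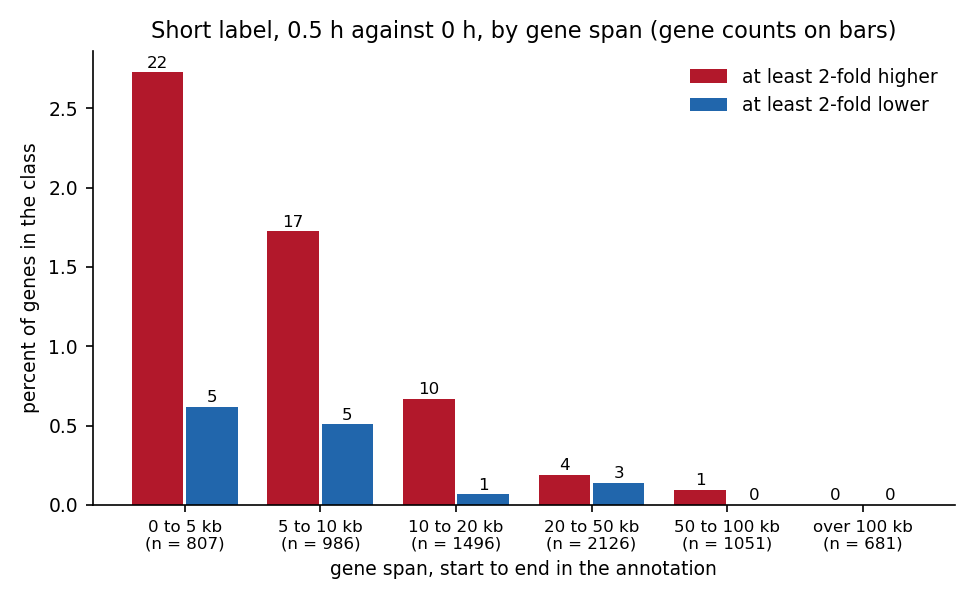
Bars give the percent of genes at least 2-fold higher (red) or lower (blue) at 0.5 h with the short label, by class of gene span on the x axis, with gene counts above the bars. The red bars go from 2.73% under 5 kb to 0 genes above 100 kb.

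Libraries with the 1 h label, which share no library with the short label, gave a separate reading at 1 h. All 54 higher genes were above 0 in the fitted difference between 1 h and 0 h, as were 47.4% of all 7155 genes, and 45 were at least 2-fold higher (2.08% of all). Their median difference was 1.85. By limma, 8 of the 54 were called higher at an adjusted p below 0.05, where 0.183% of 9278 genes tested were called higher. With the replicate number as a block, 51 were called, where 5.21% of all were. Whether replicates are separate animals or cultures is not in the labels, and the p-values may thus reflect technical spread only. Arrdc3, Polr2k and Hspa5 were the members not called with the block.

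In the 2 libraries at 0 h Egr3 measured 0.74 and 0.61 FPKM, and 138 and 106 FPKM in those at 1 h. Groups did not overlap, and the difference was 6.19 (SE 0.39, limma adjusted p = 0.0113, and from 0.000173 to 0.121 over 10 alternatives). Fos measured 2.93 and 6.86 FPKM, then 297 and 308 FPKM, a difference of 5.77 (SE 0.56, limma adjusted p = 0.0351, and from 0.000173 to 0.206 over 10 alternatives). Tnf measured 89.6 and 43.6 FPKM, then 2804 and 757 FPKM. The Tnf groups did not overlap either, but the 2 libraries at 1 h lay far apart, and the difference of 4.52 (SE 0.77) was not called, with a limma adjusted p of 0.137 (0.00032 with the block, the lowest of 10 alternatives, and 0.685 at most). Il10 was wider still, with 76.0 and 12.05 FPKM before and 2943 and 127 FPKM after. How many of all genes had groups that did not overlap was not counted. Replicate 1 was the higher library in both cases, and its CD8 and cytotoxic marker sum was also higher at 0 h, at 231 against 81.4 FPKM. So were its sums of B cell (19.22 against 4.43 FPKM), dendritic cell (32.48 against 12.03 FPKM) and Th17 markers (6.76 against 0.56 FPKM). Its Th2 marker sum was lower, at 19.22 against 49.46 FPKM, and its regulatory T cell sum too, at 87.79 against 89.8 FPKM. The part of those markers in the difference was not tested.

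**Figure D4:**
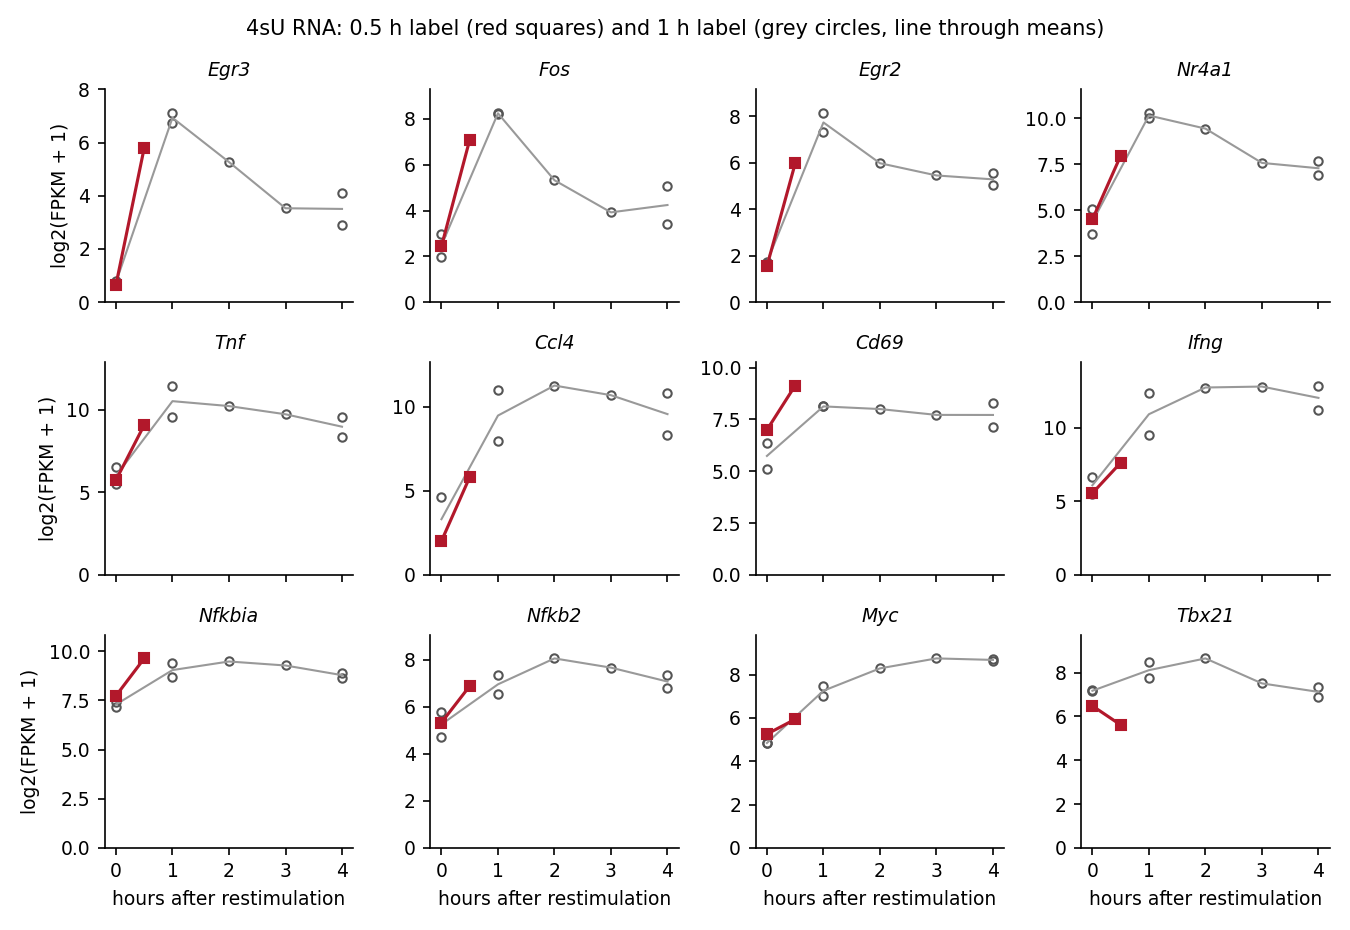
Each panel is 1 gene, with hours after restimulation on the x axis and log2(FPKM + 1) of 4sU RNA on the y axis. Red squares are the 2 short-label libraries and grey circles the 8 libraries with the 1 h label, with a line through the means at each time. Egr3, Fos, Egr2 and Nr4a1 were highest at 1 h and lower from 2 h, while Ifng and Myc were higher at 2 h than at 1 h.

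The later course differed between the genes. With the 1 h label, 26 of the 54 genes had their highest mean at 1 h, 16 at 2 h, 6 at 3 h and 6 at 4 h. The 2 h and 3 h libraries are of replicate 1 alone, so the count was repeated within replicate 1, an alternative chosen after seeing the data. There 27 genes were highest at 1 h, 14 at 2 h, 4 at 3 h, 8 at 4 h and Arrdc3 at 0 h, and 43 of the 54 kept their time. Both readings put the highest level at 1 h for Egr1, Egr2, Egr3, Fos, Jun, Ier2, Nr4a1, Tnf, Cd69, Nfkbid, Nfkbiz, Zfp36 and the phosphatase genes Dusp1, Dusp2 and Dusp6. Fos was at 39.0 FPKM at 2 h, 14.1 at 3 h and 9.71 and 32.35 at 4 h. Both put it at 2 h for Ccl3, Ccl4, Nfkbia, Nfkb2, Tnfaip3 and Bcl3, and at 4 h for Lif. Ifng and Lta were highest at 3 h in the means but at 4 h within replicate 1, and Il10 at 2 h in the means but at 1 h within replicate 1. Ifng was at 6908 FPKM at 2 h, 7227 at 3 h, and 7580 and 2368 at 4 h. Cish was highest at 4 h in the means, with 234 and 300.3 FPKM there, and at 3 h within replicate 1, with 243.9 FPKM. At 4 h, 36 of the 54 were still at least 2-fold above 0 h (8.30% of the 7155 genes) and 2 were at least 2-fold lower (15.6%). By limma, 30 were called higher (14.4% of all) and 2 lower (18.9% of all), Arrdc3 at -2.01 and Klf11 at -1.73. Under the block, calls among the 54 numbered 40 upward (23.3% of all genes tested) and 3 downward (35.4%).

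Ribosome-protected fragments gave a reading at the same 0.5 h. Of 53 of the 54 genes that could be fitted, 51 were above 0 (40.3% of all genes) and 31 were at least 2-fold higher (2.02% of all), with a median of 1.24. No gene was called by limma out of 9312 (0.0%), where 743 had an unadjusted p below 0.05. With the replicate number as a block 3 genes were called (0.0322%), and Fos was the member among them. The single RP library at 0.5 h was given the spread of the replicated times. Tnf measured 31.7 and 19.1 FPKM before and 515 FPKM after restimulation. Fos measured 2.84 and 3.64, then 59.3 FPKM, and Egr1 8.73 and 9.53, then 103 FPKM. Ifng measured 91.9 and 94.0 FPKM and then 929.7 FPKM. In each of these genes the library at 0.5 h lay above both libraries at 0 h. How many of all genes did so was not counted, and 1 library can lie above 2 others by spread alone. Nfkb2, higher by 1.55 in new RNA, measured 31.5 and 15.9 FPKM and then 22.7 FPKM in RP, between the 2 resting libraries. Tagap, at 23.1 and 49.3 and at 24.4 FPKM, also lay between them. In total RNA, where 1 library exists at 1 h, 49 of the 54 were above its 0 h partner (47.8% of all genes). Of the 54, 24 were at least 2-fold higher there, against 0.797% of all genes.

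The 14 lower genes were read in the same libraries. All 14 were below 0 at 1 h with the 1 h label (52.6% of all genes) and 6 were at least 2-fold lower (0.783% of all). None of the 14 was called by limma (0.0% of all genes called lower), and 8 were called with the block (5.42%). Cby1 measured 16.6 and 14.8 FPKM, then 6.26 and 7.44 FPKM. Otulinl measured 62.8 and 40.65 FPKM and then 27.7 and 17.8 FPKM. Neither pair of groups overlapped, and how many of all genes did likewise was not counted. In RP at 0.5 h, 12 of the 14 were below 0 (59.7% of all genes), and Cd7 measured 20.04 and 17.8 FPKM, then 5.00 FPKM. In total RNA, with 1 library at 1 h, 7 of the 14 were below 0 (52.05% of all genes) and 7 above. There 2 were at least 2-fold lower (5.48% of all). By 4 h Mrpl34 stood at 39.0 and 18.3 FPKM, 1 library above and 1 within its 11.95 to 18.55 FPKM at 0 h.

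**Figure D5:**
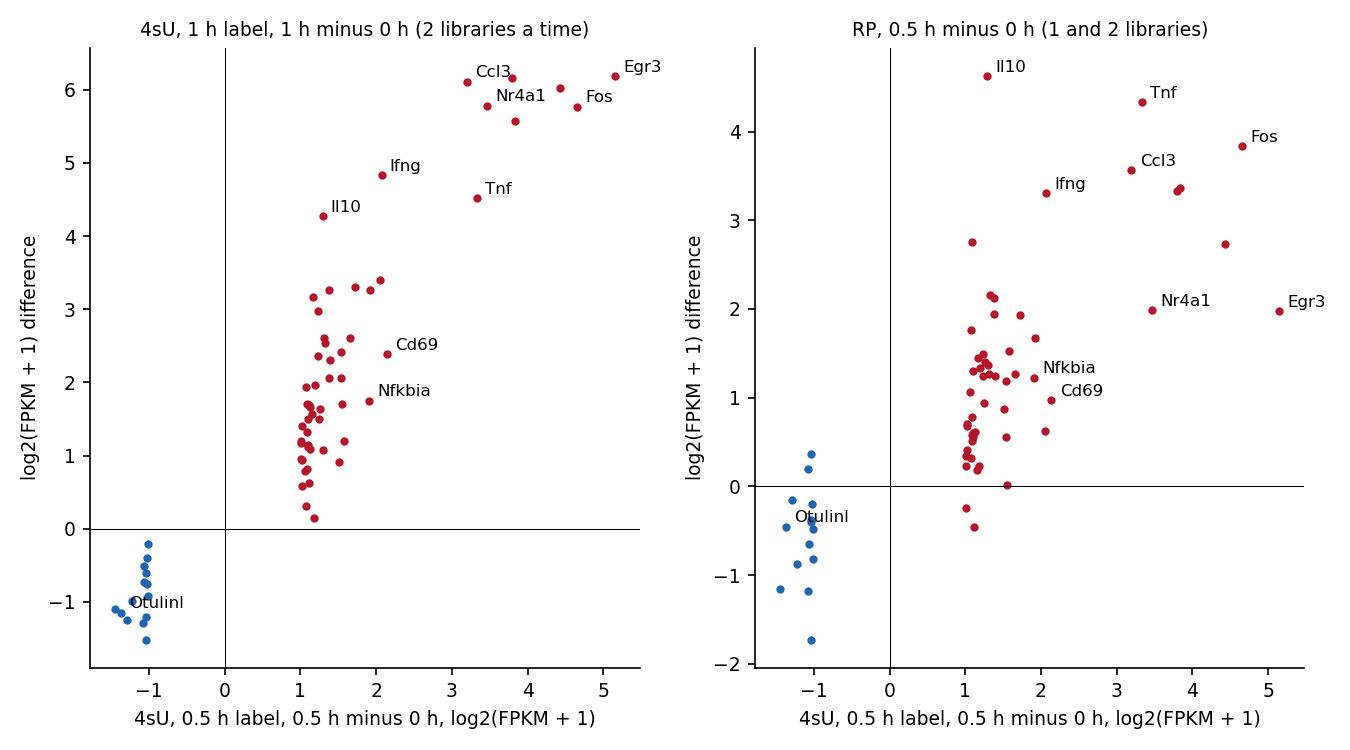
The x axis gives the short-label difference of the 54 higher (red) and 14 lower (blue) genes, and the y axis their fitted log2(FPKM + 1) difference in other libraries, 4sU RNA with the 1 h label at 1 h on the left and RP at 0.5 h on the right. On the left all red points lie above 0 and all blue points below, and on the right 51 of 53 red points lie above 0 and 12 of 14 blue points below.

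Reading back from 1 h, 103 of the 7155 genes were at least 2-fold higher in both replicates of the 1 h label. At 0.5 h, 41 of them (39.8%, and 75.9% of the 54) were already past 2-fold, 25 were between 1.5-fold and 2-fold, and 37 were under 1.5-fold. The median span was 5.31 kb for the 41 genes, 13.0 kb for the 25 and 15.4 kb for the 37. In RP at 0.5 h, 28 of the 41, 8 of 24 and 11 of 37 were at least 2-fold higher. The genes of the third class that follow were named after their values were seen, as those with the largest smaller difference of the 2 replicates at 1 h. Csf2 differed by 4.26 and 3.11 at 1 h and by 0.22 at 0.5 h. Sema7a differed by 3.23 and 2.45 at 1 h and by 0.27 at 0.5 h. Fosl2, an AP-1 member, differed by 3.22 and 2.42 at 1 h and by 0.03 at 0.5 h. The TNF family ligand genes Cd40lg (0.15), Tnfsf9 (0.11) and Fasl (0.09) were in the same class, with 1 h differences of 2.85 and 1.68, 2.78 and 1.60, and 2.31 and 1.32. Csf2 spans 2.40 kb and Tnfsf9 2.43 kb, so the class was not made of long genes alone. Conversely, 13 of the 54 were past 2-fold at 0.5 h but not in both replicates at 1 h, among them Odc1, Klf10, Jun, Arrdc3, Ccnl1 and Ier5.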

How the data were processed

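Values were FPKM as the authors deposited them, for 24 libraries and 9420 genes, relative to the mapped fragments of a library. The submitters' processing notes name featureCounts (Subread 1.4.6-p3) and GRCm38. Not given in the sources used here are the aligner, annotation, gene lengths, strand setting and choice of genes. GENCODE M21 supplied symbols for 9412 identifiers. Single-gene results of some genes are left out.

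The short label was compared as log2(FPKM + 1) without a test. For the 1 h label and for RP, limma 3.58.1 (R 4.3.3) was fitted to log2(FPKM + 1) over all times of that kind, on genes of at least 1 FPKM on average, with an intensity trend in the prior variance and two-sided Benjamini-Hochberg adjusted p-values. The pseudocount understates changes of low genes. The code was tested on simulated data.

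Deviations of same-numbered libraries from their group means correlated at 0.306 to 0.790 in 28 of 28 pairs of groups. The main fit had no term for the replicate number and did not treat replicates as pairs. On this evidence, which the labels do not give, the fit with the number as a block is given where it changes a call.

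Genes named are the 20 largest increases and 12 largest decreases (predicted or unnamed gene models left out), the 2 members of each of 42 lists with the largest difference, 20 followed activation genes and the filter edges. Other members of lists were chosen after their values were seen. The genes and lists were chosen with earlier results of these data known. Alternatives were other pseudocounts, filters and scaling, the block and leaving out replicates.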

Additional observations from a re-analysis of the deposited data

Results flagged for a closer look

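Tnfrsf1b, which encodes TNF receptor 2, was the only gene of the 7155 that differed by at least 1.5-fold one way at 0.5 h and by at least 1.5-fold the other way in both replicates at 1 h. With the short label it was at 32.8 and 21.45 FPKM, a difference of -0.59. With the 1 h label it was at 78.9 and 55.2 FPKM at 0 h and at 148 and 93.3 FPKM at 1 h, differences of 0.90 and 0.75. Whether the readings differ was not tested, and the labelling time, the 4sU dose and the time after restimulation all differed between them. Tbx21 came close, at -0.87 at 0.5 h and 1.34 and 0.54 in the replicates at 1 h.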

How the results depend on the processing

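With the short label, the 54 genes at least 2-fold higher numbered 38 to 63 under the 6 alternatives, and all 54 remained past 2-fold in each except a pseudocount of 5 (38 of them) and a filter at 10 FPKM (47). The 14 lower genes were less stable, at 5 with a pseudocount of 5, 7 with a filter at 10 FPKM, 9 with median-of-ratios scaling, and 23 with a filter at 1 FPKM or no filter. Scaling moved Cd3e from -0.03 to 0.0208.

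For 1 h against 0 h with the 1 h label, limma called 17 genes higher and 0 lower (1236 at an unadjusted p below 0.05). The fit with the replicate block called 483 and 503, a pseudocount of 5 gave 7 higher, and leaving out 1 library gave 0 to 15 higher, 0 without either 0 h library and 4 without 1 h replicate 1. For 4 h against 0 h, 1334 were higher and 1755 lower, with 2158 and 3287 under the replicate block and 501 to 1248 and 595 to 1744 without 1 library. Scaling by median of ratios turned that split to 1646 and 1372 and moved the median of all genes from -0.16 to -0.01. In RP at 0.5 h, 0 genes were called, 3 with the replicate block and 2 with a pseudocount of 5.

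Directions of genes that were not called turned in places. Leaving out 1 library at 1 h or 0 h gave Arrdc3 -0.21 to 0.50, Apba3 -0.64 to 0.21 and Hist1h2bc -1.02 to 0.21 at 1 h. In RP it gave Nfkb2 -0.46 to 0.49, Zc3h12a -0.19 to 0.56, Tagap -0.98 to 0.0769, Phlda1 -0.12 to 1.13, Actg1 -0.14 to 0.95, Hist1h2bc -0.93 to 0.52, Hist1h4n -0.095 to 0.82 and Mcrip1 -0.43 to 0.81. The replicate block in RP gave Nfkb2 -0.35, Zc3h12a -0.21, Polr2k -0.11, Hist1h2bb 0.0201 and Mcrip1 -0.30. These fits had fewer libraries or a further term, and no other cause was tested. Depth limits genes of few fragments, and the counting SE reached 0.67 among the 54 higher genes and 0.40 among the 14 lower.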

Other observations

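Some genes under the limit of 5 FPKM were among those that differed most, and they are named here after their values were seen. Tnfsf14, which encodes the TNF family ligand LIGHT, was at 0.83 FPKM at 0 h and 5.80 at 0.5 h with the short label (1.89), and at a mean of 0.82 and then 38.2 FPKM with the 1 h label at 0 and 1 h. Nr4a3, a relative of Nr4a1, was at 1.02 and then 64.9 FPKM in the same libraries. Il21, a cytokine that acts on B cells and CD8 T cells, went from 2.33 to 6.45 FPKM at 0.5 h and stood at means of 5.54 and 228 FPKM at 0 and 1 h. Trib1 (1.04), Marcksl1 (1.26), Spin2c (1.43) and Slc2a6 (1.503) were the other genes of this kind that were at least 2-fold higher at 0.5 h beside Fosb and Nr4a2. Slc2a6 alone was under 2-fold at 1 h, at means of 0.72 and 1.12 FPKM.

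Among genes of interferon responses, survival and metabolism, none of the lists below held a gene past 2-fold at 0.5 h, and their medians lay between -0.20 and 0.26, against -0.03 over all genes. Of 16 interferon response genes above 5 FPKM, 9 were above 0 and the median was 0.10, with the factor gene Irf1 at 330.2 and 571 FPKM (0.79) and Stat2 at 19.5 and 12.5 FPKM (-0.61). Of 11 Bcl2 family genes, 7 were above 0 with a median of 0.26, and Bcl2a1d was at 11.2 and 15.7 FPKM (0.45). The median was -0.10 for 15 glycolysis genes, 0.05 for 51 genes of oxidative phosphorylation and -0.20 for 12 genes of cholesterol synthesis. The hexokinase gene Hk2 was at 9.13 and 12.3 FPKM (0.39), and Fdft1, an enzyme of the sterol pathway, at 7.52 and 4.37 FPKM (-0.67).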
